A study of Mus musculus with 4 samples.

Results

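S-phase entry cells are thymic regulatory T (Treg) cells that carry transcripts of the DNA replication machinery but few transcripts of 14 mitotic genes. They were chosen by their own RNA counts. A cell was selected on 8 or more unique molecular identifiers (UMIs, 1 per captured RNA molecule) summed over 18 replication genes, with at most 2 UMIs summed over 14 mitotic genes. The replication genes were Mcm2, Mcm3, Mcm4, Mcm5, Mcm6, Mcm7, Pcna, Tyms, Rrm1, Rrm2, Ung, Gins2, Dtl, Hells, Cdc6, Slbp, Uhrf1 and Dut. The mitotic genes were Top2a, Mki67, Cdk1, Ccnb1, Ccnb2, Birc5, Ube2c, Cenpf, Aurka, Aurkb, Tpx2, Nusap1, Cdc20 and Bub1. Of 8273 cells, 549 met both conditions (6.64%, exact Clopper-Pearson 95% interval 6.11 to 7.19%). They were compared with 7112 cells below both limits and, as the most similar cells, with 481 cells that had 8 or more replication UMIs and 3 or more mitotic UMIs. A further 131 cells had mitotic UMIs only.

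The 4 samples were thymic Treg cells of 3-week-old mice, 1 sample per genotype, labelled IL2 KO (IL2 o/o), IL15 KO (IL15 o/o), WT IL2 (IL2 wt/wt) and WT IL15 (IL15 wt/wt). Every animal was on the B6 background with the Rag2-Gfp and Foxp3-Thy1a alleles, and the sort kept the CD4+CD8-Thy1.1+GFP+ fraction. The Thy1.1 reporter follows Foxp3, which specifies the Treg lineage, and GFP driven by Rag2 sequence marks T cells formed recently. Cell barcodes ended in 1 of 4 suffixes, taken as libraries 1 to 4, and no label gives the genotype behind a suffix, so no genotype is compared and the libraries are only repeats of the same comparison. There is no replicate of a genotype, and intervals cover counting error only.

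Before a cell copies its DNA, the MCM helicase is loaded on origins in G1, and E2F transcription factors, released from the retinoblastoma protein once cyclin D and cyclin E kinases act, switch on genes for the helicase, the polymerases and the supply of deoxynucleotides. Cyclin A and the replication-dependent histones follow as DNA synthesis proceeds, and the mitotic genes come later, under the DREAM complex and factors that bind CHR elements. Treg precursors in the thymus complete their differentiation under signals from the T cell receptor, IL-2 and IL-15, and most of the cells that result do not divide.

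Library totals were 5717732 to 11274713 UMIs, with 1609 to 2452 cells per library and median depths of 2501 to 3857 UMIs per cell. S-phase entry cells were deeper than cells below both limits, with a median of 7193 UMIs against 2894, and cells with both transcript groups were deeper still, at 10038. A rule in UMIs favours deep cells. The comparison with cells below both limits was therefore also made within 5 depth bins of each library. That value is given where it alters a count. The bins matched depth only in part. Of the 549 S-phase entry cells, 465 lay in the deepest bin, with a median of 7665 UMIs. Cells below both limits had a median of 5593 UMIs in that bin. A call kept within depth bins is therefore not free of depth. The share of mitochondrial UMIs had a median of 2.30% in S-phase entry cells and 2.28% in cells below both limits. In all, 27 barcodes occurred in more than 1 library. They marked 54 cells, of which 5 were S-phase entry cells.

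S-phase entry cells made up 7.89% of library 1 (127 of 1609 cells), 9.71% of library 2 (238 of 2452), 1.33% of library 3 (27 of 2037, interval 0.875 to 1.92%) and 7.22% of library 4 (157 of 2175). Library 3 thus held the smallest share, and it was also the shallowest library. After each cell was thinned to 1811 UMIs, which left out 826 shallower cells (52, 135, 415 and 224 in libraries 1 to 4), the shares were 2.76%, 3.71%, 0.308% and 2.61%, and library 3 stayed lowest. These shares rest on 185 cells, of which 108 met the rule before thinning, since a thinned cell can also lose mitotic UMIs. Within the group the replication sum had a median of 18 UMIs, with quartiles at 12 and 27 and a highest value of 82. The mitotic sum was 0 in 341 cells, 1 in 144 and 2 in 64.

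**Figure D1:**
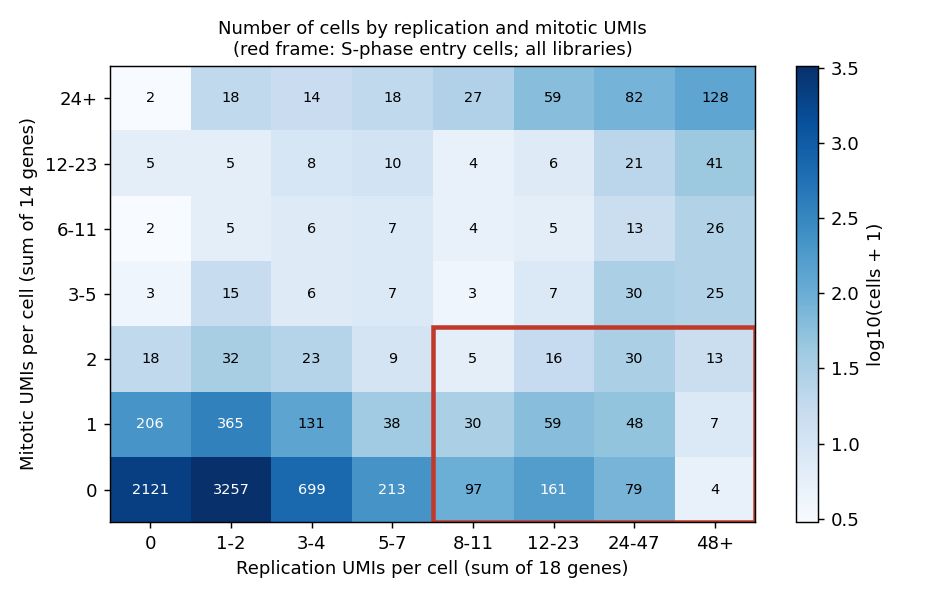
Number of cells in each class of replication UMIs per cell (horizontal, sum of 18 genes) and mitotic UMIs per cell (vertical, sum of 14 genes), over all 4 libraries, with colour on a log10 scale. The red frame holds the 549 S-phase entry cells, of which 341 lie in the row with 0 mitotic UMIs.

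The replication genes of the rule and the mitotic genes left out of it are known for different promoter elements, which is why stretches of both are shown. In 250 bases before the RefSeq start of each gene (build GRCm38.p6), an E2F-type match was taken as TTTCCCGC, TTTGGCGC, TTTCGCGC or TTTGCCGC on either strand. A CHR-type match was taken as TTTGAA or TTCGAA on either strand. By their letters an E2F match and a CHR match cannot overlap, so no base counts for both. The sequences below are printed 5′ to 3′ along the strand of the gene, with the matches in capitals, for rule genes whose window overlapped no annotated exon in GENCODE M21.
Mcm5, chr8:75109325-75109402, plus strand: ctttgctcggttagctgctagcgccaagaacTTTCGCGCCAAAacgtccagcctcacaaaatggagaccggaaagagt
Mcm6, chr1:128359710-128359787, minus strand: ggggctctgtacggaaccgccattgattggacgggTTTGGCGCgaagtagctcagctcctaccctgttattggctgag
Dtl, chr1:191575545-191575587, minus strand: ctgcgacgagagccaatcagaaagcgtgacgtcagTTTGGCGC
Uhrf1, chr17:56304093-56304170, plus strand: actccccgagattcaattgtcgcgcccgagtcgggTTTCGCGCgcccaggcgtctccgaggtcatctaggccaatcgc
Top2a, chr11:99024190-99024247, minus strand: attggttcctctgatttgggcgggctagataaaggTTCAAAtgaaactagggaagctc
Mki67, chr7:135716437-135716512, minus strand: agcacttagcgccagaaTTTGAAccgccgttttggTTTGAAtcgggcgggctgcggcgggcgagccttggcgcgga
Ccnb2, chr9:70421681-70421756, minus strand: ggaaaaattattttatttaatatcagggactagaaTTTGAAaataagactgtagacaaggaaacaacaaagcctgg
The first 4 sequences carry E2F-type letters and the last 3 carry CHR-type letters. The Mcm5, Mcm6, Dtl, Top2a, Mki67 and Ccnb2 windows lie outside annotated genes, and the Uhrf1 window lies in an intron.

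Of the 18 replication genes of the rule, 16 had a promoter entry and 7 of these held an E2F-type match (43.8%): Mcm5, Mcm6, Mcm7, Dtl, Hells, Cdc6 and Uhrf1. Of the 14 mitotic genes of the rule, 12 had an entry and 1 held such a match (8.33%), against 2.16% of 27025 genes. CHR-type letters stood in 6 of the 12 mitotic genes, Top2a, Mki67, Cdk1, Ccnb2, Ube2c and Cdc20, in 2 of the 16 replication genes (12.5%), and in 19.6% of all genes. Outside the rule, the E2F-type match was present in 61 of 776 genes called higher in S-phase entry cells (7.86%), in 20 of 964 genes called lower (2.07%) and in 175 of 4298 genes not called (4.07%). CHR-type letters were about as frequent in genes called higher (16.6%) as in genes called lower (15.5%). With 7-letter forms of the E2F match, tried after the data were seen, the shares were 24.1% of genes called higher, 13.4% of genes called lower and 17.2% of genes not called. A match describes letters in the window and shows no binding.

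Levels are given as CPM, the UMIs of a gene per 1000000 UMIs of all cells of a group summed within a library. The ratio of S-phase entry cells to cells below both limits is a Mantel-Haenszel ratio over libraries, on the log2 scale, with its 95% counting interval. A gene was called when it had 200 or more UMIs over the cells compared, a ratio of at least 1.5-fold, an interval off no change, and the same direction in every library with 20 or more cells on each side. Since cells were selected on their transcripts, all such comparisons are descriptions without a test.

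Of the 18 replication genes, 17 had enough UMIs, and their ratios are what the rule selected, so nothing is read from them beyond their order and spread. Ung, the uracil glycosylase that removes uracil from new DNA, had 173, 174, 222 and 169 CPM in S-phase entry cells of libraries 1 to 4, against 9.90, 8.80, 11.95 and 9.88 CPM in cells below both limits. The ratio was 18.3-fold (15.6 to 21.5). Hells, a chromatin remodeller needed for DNA methylation, had 82.2, 99.6, 95.9 and 109 CPM, against 2.14, 3.81, 6.54 and 4.51 CPM, the largest ratio of the 17 at 26.0-fold (20.3 to 33.4). Mcm3 and Mcm5, subunits of the helicase, had ratios of 14.4-fold (12.8 to 16.3) and 12.8-fold (11.4 to 14.5), and Gins2, a subunit of the GINS complex that joins the active helicase, 13.2-fold (10.3 to 16.8).

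Mcm3 had 257, 251, 248.5 and 268 CPM in S-phase entry cells, against 14.8, 21.0, 15.9 and 16.3 CPM in cells below both limits. Mcm5 had 221, 251, 174 and 221 CPM, against 14.6, 20.7, 13.1 and 18.2 CPM. Gins2 had 59.8, 60.5, 52.3 and 62.2 CPM, against 4.47, 4.401, 4.296 and 5.03 CPM. Among S-phase entry cells, library 3, with its 27 cells, was lowest in all 3 genes, and still far above its own cells below both limits. Pcna, the sliding clamp of the polymerases, had 291, 298, 253 and 291.5 CPM, against 57.1, 66.9, 71.35 and 69.0 CPM, a smaller ratio of 4.47-fold (4.13 to 4.84). Dtl, which marks proteins for destruction at replication forks, had the smallest ratio of the list at 2.94-fold (2.499 to 3.46), and cells below both limits had 17.1 to 26.5 CPM of it. Cdc6, which loads the helicase on origins, had too few UMIs for a call, with 62 UMIs in S-phase entry cells and 10 in all cells below both limits.

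The rule fixes that its genes are detected more often in the selected cells, so the following shares only describe how the UMIs were spread over cells. A Ung UMI was found in 340 of 549 S-phase entry cells (61.9%), against 70 of the 1066 cells in the deepest bin below both limits (6.57%), whose median depth was 5593 UMIs. For Mcm6 the shares were 85.6% against 20.6%, for Mcm3 80.0% against 8.44%, and for Hells 48.4% against 2.53%. Free RNA in droplets can give such UMIs in cells that do not express a gene, and the share in the deep cells below both limits is the nearest background available. Rrm2, a subunit of ribonucleotide reductase, was found in 12.6% of S-phase entry cells, and Cdc6 in 8.93%.

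**Figure D2:**
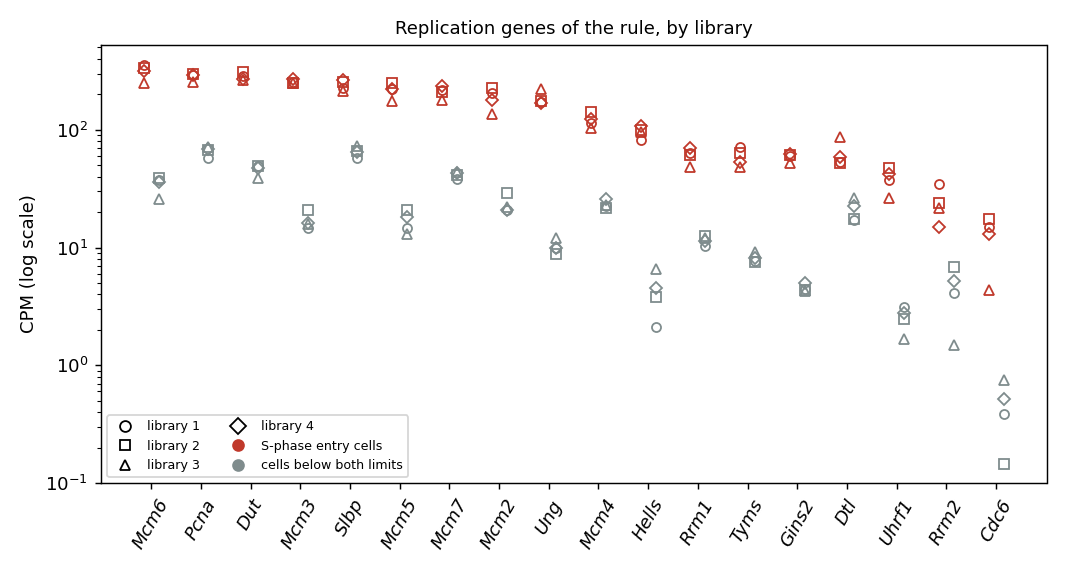
Level of each of the 18 replication genes of the rule in CPM (log scale), in S-phase entry cells (red, left of each pair) and in cells below both limits (grey), with 1 symbol per library. These are the genes the cells were selected on; every red symbol lies above every grey one of the same gene, from Dtl at 2.94-fold to Cdc6, which had 62 UMIs in S-phase entry cells.

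The mitotic genes of the rule were held down by it. Their summed level was 60.8, 71.9, 21.8 and 69.6 CPM in S-phase entry cells of libraries 1 to 4, against 37.5, 49.9, 17.6 and 48.01 CPM in cells below both limits, and 4127.5 CPM in cells with both transcript groups. Only Top2a, the topoisomerase that untangles sister DNA, had 200 UMIs over the cells compared, with 19.6, 27.2, 4.36 and 25.1 CPM against 4.27, 8.95, 4.86 and 7.11 CPM. It was higher in 3 of the libraries and lower in library 3, and it was not called. Of 32 other mitotic genes, 8 had enough UMIs, 4 were called higher and 2 lower (3 and 1 within depth bins). The summed level of these 32 genes was 809 CPM in S-phase entry cells, against 1022 CPM in cells below both limits. It was 841 CPM in the deepest cells below both limits and 5041 CPM in cells with both transcript groups. At least 5 such UMIs were present in 61.2% of S-phase entry cells, against 25.9% of the shallower cells below both limits.

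Across 7545 genes outside the rule, 953 were called higher in S-phase entry cells (12.6%) and 1211 lower (16.1%), with a median log2 ratio of -0.08. Within depth bins 794 genes were called higher and 504 lower, of which 670 and 456 were shared with the first count, and no gene was called in the opposite direction. The share of calls that were higher thereby went to 61.2% within depth bins, against 44.0% without them. Where a gene or list lost its call within depth bins, depth and cell state cannot be told apart by these values.

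The 12 genes outside the rule with the largest ratios included Cenps, Prim1, Rmi2, E2f1, Cdca7, Lig1, Tipin, Pclaf, Tcf19, Gmnn and Cdca7l, and all 12 were also called higher within depth bins. Cenps, a protein of the kinetochore and of the Fanconi DNA repair pathway, had 36.45, 44.7, 43.6 and 46.4 CPM in S-phase entry cells, against 2.33, 2.93, 2.99 and 3.64 CPM in cells below both limits, a ratio of 14.5-fold (10.8 to 19.45). E2f1, an activating E2F factor and itself an E2F target, had 43.9, 40.7, 17.4 and 45.5 CPM, against 4.27, 4.25, 0.560 and 1.91 CPM (12.2-fold, 9.15 to 16.2). Cdca7, a partner of the remodeller Hells, had 122, 117, 122 and 139 CPM, against 8.155, 13.5, 6.54 and 10.75 CPM (11.4-fold, 9.72 to 13.3). In each of these genes all 4 libraries of S-phase entry cells lay above all 4 libraries of cells below both limits.

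Of 20 genes for origin licensing and firing, 11 had enough UMIs, 6 were called higher and 0 lower, with a median log2 ratio of 0.85 (0.91 within depth bins). Those called were Gmnn, the inhibitor that stops origins from being licensed again (2.77), Cdt1, the licensing factor that Gmnn binds (2.41), Orc6 (2.17), Rif1 (1.28), Orc2 (0.94) and Gins4 (0.85). Gmnn had 112, 105.8, 56.7 and 85.4 CPM, against 16.5, 13.4, 13.6 and 14.6 CPM. Within depth bins 7 genes of the list were called higher. The origin recognition subunits Orc3, Orc4 and Orc5 were not called, with log2 ratios of 0.48, 0.04 and 0.38. The level of the licensing inhibitor was thus higher together with that of the licensing factor, while subunits of the origin recognition complex differed among themselves.

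The replication fork list had the largest median among the lists outside the rule. Of 32 genes, 24 had enough UMIs, 21 were called higher and 1 lower, with a median log2 ratio of 1.72 (22 higher, 1 lower and 1.67 within depth bins). Prim1, the catalytic subunit of primase, had 96.3, 79.8, 61.0 and 79.85 CPM in S-phase entry cells, against 5.24, 5.87, 3.36 and 7.45 CPM in cells below both limits (log2 ratio 3.80). Lig1, the ligase that joins Okazaki fragments, had a ratio of 3.42, and Tipin, which steadies the fork with Timeless, had 3.09. Rpa2, a subunit of the protein that coats single-stranded DNA, had 1.81, and Rfc2, a subunit of the clamp loader, had 1.31. The single gene called lower was Pold4, the smallest subunit of polymerase delta, with 80.4, 82.0, 69.7 and 65.0 CPM against 140.8, 140.4, 137 and 140.8 CPM (-0.88, and -0.97 within depth bins). Pold4 was lower in all 4 libraries, as its call required. Pold1, Pold2 and Pold3, the other subunits of the same enzyme, had ratios of 2.56, 1.82 and 1.40.

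Of 22 genes of nucleotide supply, 20 had enough UMIs, 17 were called higher and 0 lower, with a median of 1.43 (15 higher and 0.99 within depth bins). Dctpp1, which clears damaged deoxycytidine nucleotides, had a ratio of 2.10, Dtymk, which phosphorylates thymidylate, 1.55, and Nme1, a nucleoside diphosphate kinase, 1.45. Impdh2, the entry enzyme of guanine nucleotide synthesis, had 1.42, and 0.84 within depth bins. The 3 genes not called were Dck, Adss and Rrm2b, with ratios of 0.18, 0.36 and -0.12.

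Of 19 genes for chromatin assembly and DNA methylation, 18 had enough UMIs, 15 were called higher and 0 lower, with a median of 1.14 (16 higher and 1.04 within depth bins). Asf1b and Chaf1b, chaperones that place histones on new DNA, had ratios of 2.44 and 1.85, and Dnmt1, which copies DNA methylation, had 2.02. H2afz, a histone variant made outside S phase as well, had 2135, 2179, 1869.9 and 2159 CPM, against 985, 1232, 611 and 1039 CPM (0.99). Of 24 repair genes, 10 had enough UMIs, 6 were called higher and 0 lower, with a median of 0.95 (7 higher and 0.96 within depth bins). Usp1, which removes ubiquitin from Pcna, had the largest ratio of the 6 at 1.596, and Topbp1, Msh6, Rbbp8 and Rad50 had 1.30, 1.29, 1.15 and 0.93.

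The replication-dependent histones stood apart from the rest of the replication genes. Their summed level over 19 genes was 86.0, 73.0, 91.5 and 109.6 CPM in S-phase entry cells of libraries 1 to 4, against 105, 93.6, 134 and 145 CPM in cells below both limits. In cells with both transcript groups it was 2772 CPM. Hist1h2ap, an H2A gene, had 17.8, 15.8, 43.6 and 26.0 CPM, against 20.6, 16.1, 28.6 and 22.0 CPM, a ratio of 1.06-fold (0.840 to 1.34), and 1995 CPM in cells with both transcript groups. The histone sum of S-phase entry cells was thus below that of the other cells of their own library in all 4 libraries, and Hist1h2ap was higher in libraries 3 and 4 only. Counting intervals of the sum overlapped in libraries 1, 2 and 3, and library 3 rested on 21 UMIs in S-phase entry cells. They did not overlap in library 4 or over all libraries. Of the 19 genes, 5 had enough UMIs and 0 were called higher. Hist1h1c and Hist1h2bc were called lower, with log2 ratios of -1.12 and -2.17, and only Hist1h2bc kept that call within depth bins. Most of these transcripts lack the poly(A) tail that the capture relies on, and near-identical copies share reads, so levels of single histone genes are uncertain. Slbp, which binds the end of histone transcripts and is a gene of the rule, had 224, 256, 214 and 264 CPM in S-phase entry cells, against 57.9, 66.2, 72.3 and 65.2 CPM.

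The name S-phase entry stands for the rule and not for a measured DNA content. Transcripts of origin licensing, forks and nucleotide supply were high in these cells, while the histone transcripts that accompany DNA synthesis were not. The rule bears on both levels. At least 5 histone UMIs were present in 77.96% of cells with both transcript groups, against 1.275% of S-phase entry cells. The mitotic limit left the former out, so the low histone level is not independent of the selection.

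Among 30 regulators of the passage into S phase, 18 had enough UMIs, 6 were called higher and 7 lower, with a median of 0.10 (6 higher, 4 lower and 0.03 within depth bins). Those called higher were E2f1 (3.60), Cks1b (1.67), Cdk2 (1.49), Cdk4 (1.38), Cdc25a (1.20) and Rbl1 (1.16). Cdk4, the kinase partner of D cyclins, had 388, 384, 401 and 336 CPM in S-phase entry cells, against 135, 159, 107 and 138 CPM in cells below both limits. Its partner Ccnd2 differed little, at 796, 844, 737 and 1022 CPM against 774, 1038, 771 and 1001 CPM (-0.11, interval -0.16 to -0.06). Ccnd3 had 202, 194, 126 and 164 CPM, against 394, 356, 423 and 297 CPM (-0.95), and lost its call within depth bins at -0.37.

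The other 6 genes called lower in that list were Btg1 (-1.49), Ccng2 (-1.34), Btg2 (-1.15), Cdkn1b (-1.03), Cdkn2d (-0.93) and Rb1 (-0.66). Btg1 and Btg2 restrain proliferation, Cdkn1b and Cdkn2d inhibit cyclin-dependent kinases, and Ccng2 is high in cells at rest. Btg1 had 746, 752, 793 and 802 CPM in S-phase entry cells, against 2067, 1963, 3237 and 2253 CPM in cells below both limits. All 4 libraries were lower, as the call required. Within depth bins Btg1, Btg2, Ccng2 and Cdkn2d kept their calls, while Cdkn1b, Rb1 and Ccnd3 did not. Cyclin E and cyclin A genes, named after their values were seen, had too few UMIs for a call. Ccne1 and Ccna2 are described with the bands of replication UMIs.

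Genes of ribosome production and MYC targets were called higher in 23 of the 25 with enough UMIs and lower in 0, with a median of 1.16. Within depth bins 20 were called and the median was 0.80. Ncl and Npm1, nucleolar proteins, had ratios of 1.01 and 1.00, and Fbl, which methylates ribosomal RNA, had 1.12. Fbl had 362, 358, 392.3 and 321 CPM in S-phase entry cells, against 158, 175, 126 and 155 CPM in cells below both limits. Hspe1 and Hspd1, the mitochondrial chaperonin pair, had 1.26 and 1.72. Myc itself was not called, at 0.31. Of 17 glycolysis genes, 16 had enough UMIs, 9 were called higher and 1 lower, with a median of 0.69 that was 0.39, with 5 calls, within depth bins. Gapdh had 1469, 1674, 1552 and 1414 CPM, against 866, 929, 586 and 685 CPM (0.90, and 0.46 within depth bins). The gene called lower was Slc2a3, a glucose transporter, at -1.39. The 13 mitochondrial transcripts had a median of 0.07 and no call in either direction.

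Defining genes of Treg cells were present in S-phase entry cells. Il2ra, the high-affinity IL-2 receptor chain, had 189, 182, 34.9 and 153 CPM in S-phase entry cells, against 195, 190, 30.6 and 171 CPM in cells below both limits (-0.08, interval -0.20 to 0.04). It was low in library 3 in both groups. Ikzf2 had 918, 875, 811 and 1068 CPM, against 948, 986, 1067 and 961 CPM (-0.06). Ctla4 had 129, 145, 30.5 and 137 CPM, against 191, 192, 86.5 and 143 CPM, a ratio of -0.39 that was not called. Foxp3 had 8.41, 7.36, 4.36 and 10.2 CPM, from 34 UMIs, against 17.5, 17.0, 14.6 and 15.6 CPM, and was called lower (-1.02, interval -1.53 to -0.51, and -0.79 within depth bins). All 4 libraries were lower for Foxp3, as the call required. In library 3 the Foxp3 value rests on 1 UMI, and its interval of 0.11 to 24.29 CPM holds the level of the other cells. Il2ra and Ctla4 rest there on 8 and 7 UMIs. Of 17 Treg identity genes with enough UMIs, 1 was called higher and 3 lower (0 and 2 within depth bins), with a median of -0.17, beside -0.08 over all genes tested. Over all genes tested 16.1% were called lower and 12.6% higher, so the count of lower genes in the list was near that share. The gene called higher was Tnfrsf9, a costimulatory receptor of activated cells, at 0.70 and 0.36 within depth bins, where it lost its call. The other 2 called lower, Gpr83 and Foxo1, lost theirs too.

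The list of genes that answer to IL-2 through STAT5 had 18 with enough UMIs, of which 0 were called higher and 5 lower, with a median of -0.37 (2 lower within depth bins). Beside these stand 16.1% of all genes tested called lower, and 504 of 7545 within depth bins. Il2rb and Tnfrsf18 had ratios of -0.19 and 0.09. Bcl2, a survival gene, had 350.5, 367, 100.3 and 377 CPM in S-phase entry cells, against 688, 815, 614 and 746 CPM in cells below both limits (-1.11), and -0.58 within depth bins, where it was not called. Pim2 (-0.999) and Osm (-0.78) kept their calls within depth bins. Of 22 genes of T cell receptor and NF-kB signalling, 1 was called higher (Bcl2l1, 0.86) and 3 lower (Egr1, Nfkbid and Egr2, at -1.02, -0.80 and -0.63), with a median of -0.30. Over all genes tested, 12.6% were called higher and 16.1% lower, so neither count of this list was above that share. Within depth bins 0 genes of the list were called higher and 3 lower: Bcl2l1 had 0.15 and Egr2 0.19 there, and neither was called. Nfkbia and Nr4a1, which are induced by these signals, had -0.27 and -0.57 and were not called. For 11 effector Treg genes the median was 0.40 over libraries and -0.39 within depth bins, so its sign depended on depth, and 3 were called higher and 2 lower, against 0 and 1 within depth bins. Icos was the effector gene that was called lower in both, at -1.14 and -0.72.

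Genes of late maturation and thymic egress were mostly lower. Of 23 with enough UMIs, 21 were called lower and 0 higher, with a median of -0.94. Within depth bins 12 were called lower and the median was -0.59, against -0.000567 over all genes. Gimap4, a GTPase of mature T cells, had 152, 236.5, 122 and 233 CPM in S-phase entry cells, against 527, 574, 885 and 673 CPM in cells below both limits (-1.56). Ms4a4b, a membrane protein of mature T cells, had 757, 876, 527 and 845 CPM, against 1729, 1850, 2243 and 2000 CPM (-1.21). Klf2, the factor that drives egress receptors, had a ratio of -0.96, and its target S1pr1, the receptor for exit from the thymus, had -1.31. Both lost their calls within depth bins, Klf2 at -0.52. Ccr7, a chemokine receptor that guides thymocytes to the medulla, was not called at -0.49.

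The interferon response list had 24 genes with enough UMIs, 21 called lower and 0 higher, with a median of -1.07, which was -0.71 with 12 calls within depth bins. The largest difference of the list was Iigp1, a GTPase induced by interferon, at -1.995. The median of the list was -2.25 in library 3 and -0.68 to -1.17 in the others. In library 3 it rests on 27 S-phase entry cells. The summed level of the list differed less there, at 2737 CPM against 6726 CPM in cells below both limits. Of the 3 genes not called, Bst2 had 0.21. Among 13 genes of apoptosis and p53 with enough UMIs, 2 were called higher, Aen and Bcl2l1, and 4 lower, Bbc3, Trp53inp1, Bcl2 and Zmat3, with a median of -0.51. Over all genes tested 12.6% were called higher and 16.1% lower, so the count of higher genes in this list was near that share. Within depth bins Aen was called higher and Bbc3 and Trp53inp1 lower, while Bcl2l1, Bcl2 and Zmat3 were not called.

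**Figure D3:**
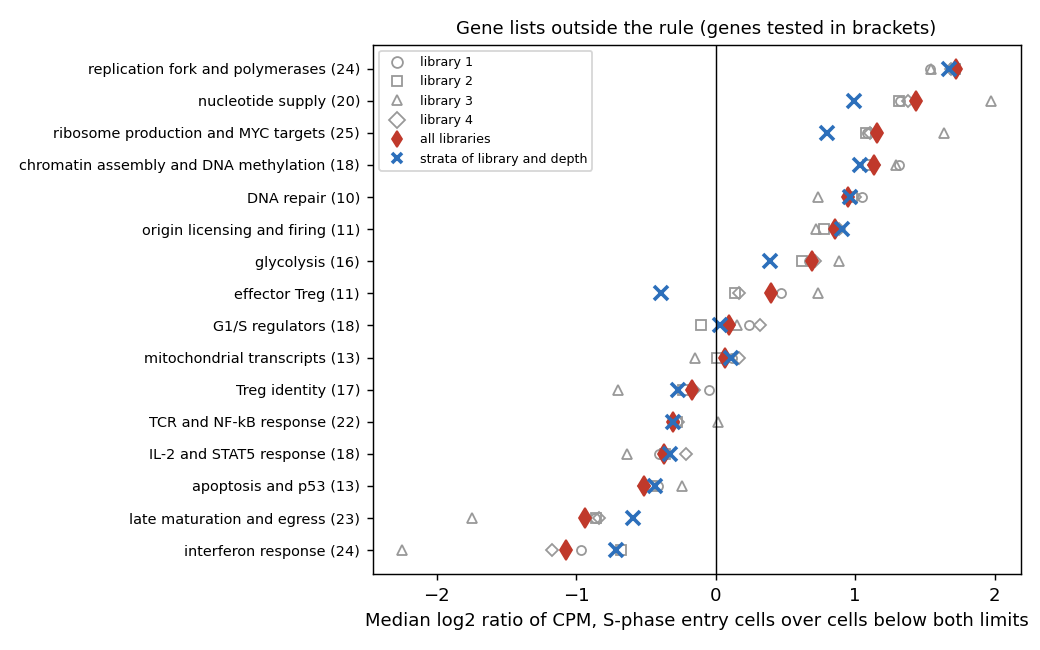
Median log2 ratio of CPM of S-phase entry cells over cells below both limits for 16 gene lists outside the rule, with the number of genes tested in brackets. Red diamonds are all libraries, grey symbols single libraries and blue crosses the ratio within depth bins; the fork list lies highest at 1.72 and the interferon list lowest at -1.07, and the effector list changes sign.

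The 12 genes called lower with the largest ratios were Als2cl, Tmie, Slfn5, A530021J07Rik, Gm11131, Ly6c1, E030030I06Rik, Letm2, Hist1h2bc, A630023P12Rik, D930028M14Rik and Tdrp. Als2cl and Tmie had 4 and 5 UMIs in S-phase entry cells and lost their calls within depth bins, and the other 10 kept them. Slfn5, a Schlafen family gene that interferon induces, had 3.74, 7.92, 0 and 6.50 CPM in S-phase entry cells, from 25 UMIs, against 32.2, 34.9, 47.4 and 45.9 CPM in cells below both limits (-2.67). Ly6c1, a surface protein of mature T cells, had 1.87, 1.70, 4.36 and 6.50 CPM, against 13.0, 9.83, 48.2 and 21.3 CPM (-2.34). In both genes every library of S-phase entry cells was below its own library of the other cells, as the call required.

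Markers of other cell types were counted in the same way. Of 12 markers of double-positive thymocytes, the stage that the CD8- sort should remove, 4 had enough UMIs, 0 were called higher and 3 lower, with none called within depth bins. Their summed level was 88.8, 102, 279 and 56.6 CPM in S-phase entry cells, against 117, 117, 136 and 164 CPM in cells below both limits, so library 3 was the exception. There Dntt, the enzyme that adds bases at receptor joints, had 126 CPM against 12.1, while the other libraries had 16.8, 14.7 and 0.929 CPM against 6.80, 7.78 and 9.19. Cd8a had 4.67, 10.2, 4.36 and 6.50 CPM, against 12.2, 12.03, 13.8 and 18.4 CPM (-0.91), but its ratio was 0.33 within depth bins. The median of the list was -0.99, and 0.08 within depth bins. Over all libraries the summed level was 96.5 CPM in S-phase entry cells, against 88.8 CPM in the deepest cells below both limits. Rag1 had 8 UMIs in all S-phase entry cells. At least 1 UMI of Cd8a, Cd8b1, Rag1 or Dntt was present in 93 of 549 S-phase entry cells, against 682 of 7112 cells below both limits, which were shallower. In library 3 such cells were 10 of 27 S-phase entry cells, against 170 of 1997. Without all cells that had such a UMI, 986 genes were called higher and 1218 lower, so these counts were about as large without them.

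Of 14 markers of innate-like lymphocytes (NK, NKT and gamma delta), 4 had enough UMIs and Nkg7, a granule protein, was called higher. It had 560, 317, 305 and 276 CPM in S-phase entry cells, against 135, 126, 23.5 and 66.6 CPM in cells below both limits (1.80, and 0.72 within depth bins). The summed level of the list was 823.5, 590.1, 440.2 and 582 CPM in S-phase entry cells, against 408, 453, 180.4 and 316 CPM in cells below both limits, higher in all 4 libraries. Nkg7 is part of this sum. In libraries 1, 2 and 3 the gap in Nkg7 alone was at least as large as the gap in the sum. The sum thus describes Nkg7 more than the other markers, and the other 3 genes with enough UMIs were not called. Over all libraries it was 640.0 CPM, against 543 CPM in the deepest cells below both limits. Cells with 5 or more such UMIs were 33.15% of S-phase entry cells, against 5.47% of the shallower cells below both limits. Tyrobp and Fcer1g, signalling adaptors of NK cells, had 0 UMIs in S-phase entry cells, which allows up to 0.724 CPM. Of 15 B cell and myeloid markers, 3 had enough UMIs and 0 were called, with a summed level of 219, 239.9, 353 and 252 CPM against 197, 216, 247 and 197 CPM, also higher in all 4 libraries. In the deepest cells below both limits that sum was 237 CPM. Epcam was the only epithelial marker with enough UMIs, and it was not called. Erythroid transcripts summed to 0, 0, 26.2 and 0 CPM in S-phase entry cells, against 0, 10.3, 2004 and 1.56 CPM in cells below both limits, and the 26.2 CPM rested on 6 UMIs. In library 3, 1 of the 1997 cells below both limits held 10431 of the 10730 erythroid UMIs, so the 2004 CPM is the value of 1 cell more than of the library. What these markers contribute to the other differences was not tested.

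Against the 481 cells with both transcript groups, 4821 genes outside the rule had 200 UMIs, of which 196 were called higher in S-phase entry cells (4.07%) and 390 lower (8.09%). Within depth bins these counts were 367 and 509, and with S-phase entry cells of 0 mitotic UMIs only they were 102 and 363. Library 3 had 13 cells with both transcript groups and took no part in the check of directions. Those 13 cells had 1556 CPM of double-positive thymocyte markers, against 94.4 to 195 CPM in such cells of the other libraries, and without library 3 the counts were 181 higher and 376 lower. This contrast was split by mitotic UMIs, so the mitotic lists describe the rule. All 29 other mitotic genes with enough UMIs were called lower, with a median of -4.57. All 7 replication-dependent histones with enough UMIs were called lower too, with a median of -3.12 and Hist1h2ap at -6.65.

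The replication genes of the rule were not all in the same relation to cells with both transcript groups. Ung was the one replication gene of the rule that was called higher in S-phase entry cells than in cells with both transcript groups. It had 173, 174, 222 and 169 CPM, against 71.3, 92.6, 104 and 104 CPM in cells with both transcript groups (log2 ratio 0.95, interval 0.78 to 1.12). Mcm2, Mcm3, Mcm4, Mcm5, Mcm6, Mcm7, Gins2 and Hells were not called, with ratios of 0.40, 0.24, 0.33, -0.23, 0.13, -0.37, -0.30 and -0.20. The other 9 were called lower. Rrm2 had 34.6, 23.8, 21.8 and 14.9 CPM in S-phase entry cells, against 537, 591, 722 and 547 CPM in cells with both transcript groups (-4.55). Tyms, the thymidylate synthase, had 71.0, 63.4, 47.95 and 52.9 CPM, against 385, 365, 529 and 401.5 CPM in cells with both transcript groups (-2.63). Rrm1, the partner subunit of Rrm2, had -2.05, Uhrf1 -1.62, Cdc6 -1.41, Pcna -0.99, Slbp -0.74, Dtl -0.73 and Dut -0.71. The ratios of the helicase subunits thus lay between -0.37 and 0.40, and those of both ribonucleotide reductase subunits and thymidylate synthase between -4.55 and -2.05. All of these are genes the rule selected on.

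Outside the rule, Tk1, which salvages thymidine, was also called lower (-3.24), as were Pclaf, a factor bound to Pcna (-4.38), and Clspn, which carries the checkpoint signal at forks (-3.30). Cdca7, Tipin, Rmi2 and E2f1 were not called, at 0.33, -0.30, -0.25 and -0.47. Of 30 fork genes with enough UMIs, 15 were called lower and 0 higher, and of 19 chromatin genes 13 were called lower and 0 higher. Hmgb2, a DNA-bending protein, had a ratio of -2.73. In the opposite direction, ribosome production and MYC target genes were called higher in 11 of 25 and lower in 0, with a median of 0.55. The 11 were Nop16, Mybbp1a, Ppan, Rrp9, Rrs1, Srm, Wdr43, Hspe1, Nhp2, Fbl and Nolc1, with ratios of 0.90, 0.88, 0.83, 0.77, 0.72, 0.71, 0.66, 0.65, 0.64, 0.61 and 0.61.

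Ccnd2 had 796, 844, 737 and 1022 CPM in S-phase entry cells, and 402 CPM in cells with both transcript groups (1.12, called higher). Cyclin E and cyclin A were lower, at -2.23 for Ccne1, -2.47 for Ccne2 and -7.12 for Ccna2. Nkg7 (1.01), Tnfrsf9 (0.79) and Socs2 (0.78) were called higher, and 21 of 22 genes of late maturation and egress with enough UMIs were not called, with a median of -0.10. Of 15 interferon response genes, 4 were called higher: Ifit1 (1.29), Isg20 (0.67), Isg15 (0.62) and Irf7 (0.60). When mitochondrial and ribosomal protein genes were left out of the totals, the median over all genes moved to 0.12, against 0.03 with them, and 323 genes were called higher and 324 lower, so the balance of higher and lower calls in this contrast depended on the scaling.

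S-phase entry cells also varied among themselves. Cells with 8 to 11, 12 to 23 and 24 or more replication UMIs numbered 132, 236 and 181, with median depths of 5635.5, 6741.5 and 8740.0 UMIs. Mcm3 had 123, 235 and 341 CPM in these bands, and Ung had 117, 129.6 and 247 CPM. E2f1 had 19.03, 31.95 and 61.3 CPM. Ccne1, a cyclin E gene, had 6.34, 15.7 and 29.5 CPM, against 5.11 CPM in cells below both limits, and Rrm2 had 2.54, 15.7 and 42.4 CPM. Ccna2, the cyclin A gene, was at 2.54, 1.81 and 1.77 CPM, against 1.78 CPM in cells below both limits and 273 CPM in cells with both transcript groups. The histone sum was 72.3, 77.2 and 103 CPM. Among these bands, levels of Ccne1 and Rrm2 were thus ordered as the bands were. That order of Rrm2 did not extend below the limit, since cells with 5 to 7 replication UMIs had 11.25 CPM of it. In the lowest band Rrm2 had the same level as Ccna2 and rests on as few UMIs, and Ccne1 was also low there. The Ccna2 values rest on 8 UMIs in all S-phase entry cells, too few to order the bands. The bands are cut on the replication sum itself, and Mcm3, Ung and Rrm2 are part of that sum, so their levels describe the cut. The bands also differ in depth.

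**Figure D4:**
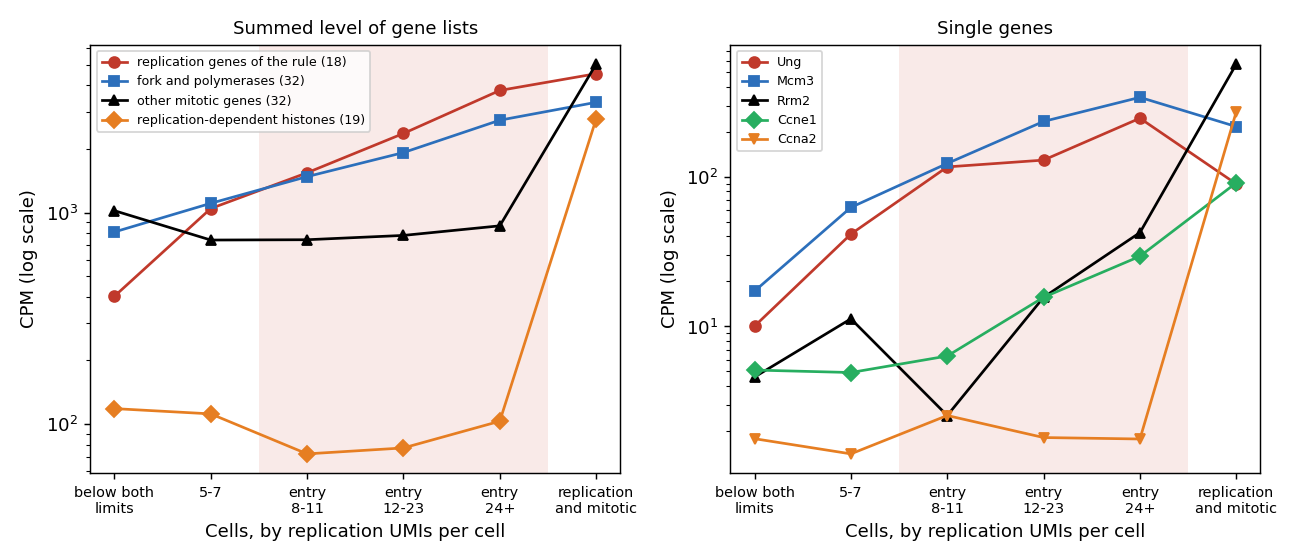
Level in CPM (log scale) of 4 gene lists (left panel, number of genes in brackets) and 5 genes (right panel) in cells below both limits, in the 260 of those cells with 5 to 7 replication UMIs, in S-phase entry cells of 3 bands of replication UMIs (shaded) and in cells with both transcript groups. Histones and Ccna2 (8 UMIs in S-phase entry cells) stay near the level of cells below both limits in all 3 shaded bands, at 72.3 to 103 CPM and 1.77 to 2.54 CPM, while Ung is higher in the shaded bands than in cells with both transcript groups.

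The cells just inside and just outside the limits of the rule compared as follows. The 49 S-phase entry cells with exactly 8 replication UMIs had a summed replication level of 1279 CPM, against 1219.6 CPM in 54 cells with 7. Their Ung level was 117 CPM against 61.3 CPM, and their level of ribosome production and MYC target genes was 10560.1 CPM against 7669 CPM. The 64 S-phase entry cells with 2 mitotic UMIs had 96.5 CPM of histones and 1.82 CPM of Ccna2, against 153 CPM and 23.6 CPM in 24 cells with 3 mitotic UMIs. Ccna2 UMIs were few in both of these small sets, so no step at the limit is read from its levels. All cells with both transcript groups had 2772 CPM of histones and 273 CPM of Ccna2, far above the cells on either side of the mitotic limit.

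The authors deposited a second table of normalised values for cells taken as G1, and it held 526 of the 549 S-phase entry cells (95.8%, exact interval 93.8 to 97.3%). The shares were 96.1%, 94.5%, 100% and 96.8% in libraries 1 to 4. The table held 91.4% of cells below both limits and 32.6% of cells with both transcript groups. All 24 cells at the mitotic limit with 3 mitotic UMIs were in it. In the deepest of 5 depth bins it held 460 of 465 S-phase entry cells (98.9%), against 1042 of 1066 cells below both limits (97.75%), with intervals of 97.5 to 99.65% and 96.7 to 98.55% that overlapped. In the shallowest bin it held 0 of 5 S-phase entry cells, against 78.2% of 1528 cells below both limits, and in the next bin 2 of 6, against 91.9% of 1526. The intervals of the shallowest bin were 0 to 52.2% and 76.05 to 80.25% and did not overlap, but the S-phase entry cells of these bins number 11 in all, and the difference was not tested. The sources used here do not say how the authors assigned a phase to each cell.

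**Figure D5:**
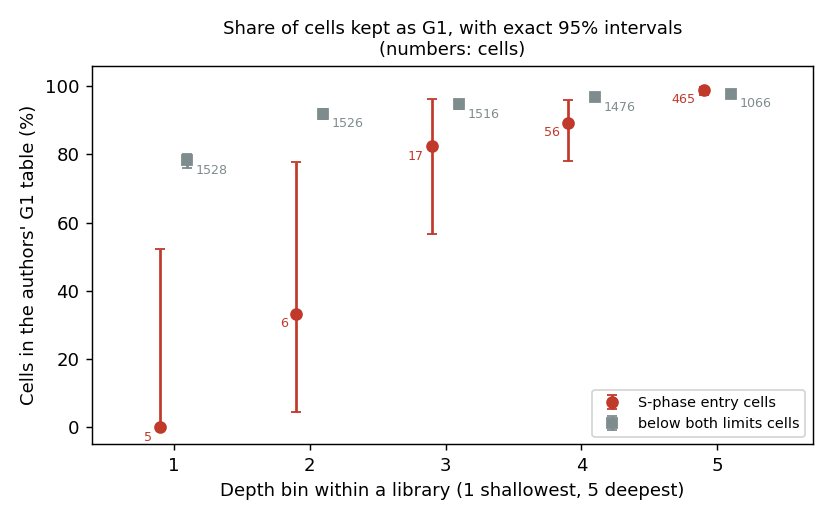
Share of cells held in the authors' G1 table, in percent, by depth bin within a library, for S-phase entry cells (red, left) and cells below both limits (grey), with exact 95% intervals and the number of cells beside each point. In the deepest bin the shares are 98.9% and 97.75%, and in the shallowest 0 of 5 cells and 78.2%.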

How the data were processed

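Single-cell RNA-seq libraries were made with a 3' kit (Chromium v2) from 4 sorted Treg samples, per the labels' protocols. CASAVA 2.20, Cell Ranger 2.0.2 and R 3.4.1 with build mm10 are named in the submitters' processing notes, without their roles. The deposited count table holds UMI counts of 27998 genes in 8273 cells, with no column tied to a sample (8273 columns not mapped). A second table deposited by the authors holds log2 values of 7231 cells and 9571 genes. These equal log2 of the count divided by a factor per cell, plus 1, to a relative deviation of at most 1.1e-14. It was used for membership and as 1 alternative.

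Counts were summed per library and group, and ratios of CPM were combined over libraries by Mantel-Haenszel weights with 95% counting intervals, which treat UMIs as independent and leave out the spread between animals. edgeR's test needs replicates of a condition and was not the main comparison, and no p-value was computed. edgeR 4.0.16 and DESeq2 1.42.0 under R 4.3.3 gave scaling factors only. Other steps used scipy 1.17.1 and numpy 2.4.6, with pandas 2.3.3, under Python 3.11.15, and figures matplotlib 3.10.9. The procedure was tested on simulated data. No cells were filtered and no doublet caller was run. The 32 genes of the rule were left out of counts of called genes. Depth bins are 5 bins of UMIs per cell within a library. For thinning, each cell was reduced at random to 1811 UMIs, the 10th percentile of depth.

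The members and the 23 gene lists were chosen with earlier results of these data known. Named genes are the genes of the rule, the 12 called genes with the largest ratio each way, up to 6 genes with most UMIs per list, and the Treg and thymocyte markers. Genes named beyond these, such as further called members of a list, polymerase delta and origin recognition subunits and the cyclins, were chosen after their values were seen. Of the listed genes, 8 were not analysed here for lack of a match. Promoter letters were counted in RefSeq sequences of GRCm38.p6. Results for some named genes are not reported here.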

Additional observations from a re-analysis of the deposited data

How the results depend on the processing

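No paired analysis was possible because no barcode suffix is tied to a sample or its replicate number; the ratios already compare groups within each library. No ratio is given for Alas2, Fcer1g, Prss16, Psmb11 and Tyrobp, which had 0 UMIs in S-phase entry cells. With 0 mitotic UMIs allowed, the rule found 341 cells. After thinning, library shares were 2.76%, 3.71%, 0.308% and 2.61%. Against cells below both limits, depth bins gave 504 genes called lower, and a fold limit of 2 gave 386 higher and 364 lower. Leaving out 1 library at a time gave 865 to 936 genes called higher and 1108 to 1179 lower. Trimmed means of M-values moved the median log2 ratio to -0.04, against -0.08.

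The alternatives for cells with both transcript groups were chosen after seeing the data. There the genes called higher numbered 102 with 0 mitotic UMIs, 367 within depth bins and 323 without mitochondrial and ribosomal protein genes. The counts higher and lower were 471 and 762 from 50 UMIs, 72 and 195 from 500 UMIs, 65 and 167 with the authors' normalised values, and 22 and 210 at a fold limit of 2. Leaving out 1 library at a time gave 139 to 181 higher and 284 to 376 lower. Of values for single genes under the alternatives, 3450 kept direction and call, 133 lost the call, 74 gained it and 1 reversed, Cd8a at 0.33 within depth bins. The cause of these differences was not tested, except that a higher fold limit or UMI minimum calls fewer genes by construction.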
